A study of Mus musculus with 6 samples.

Results

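The genes described here make heme or handle iron: Alas1, Alas2, Cpox, Ppox and Fech of heme synthesis, Hmox2 of heme breakdown, and Tfrc, Fth1, Slc40a1 and Ireb2 of iron uptake, storage, export and sensing. They were taken by symbol, 10 of 19245 gene symbols in the deposited table, and all 10 had enough counts to be tested. Ventricular RNA of C57BL/6 mice was sequenced at embryonic day 17.5. Libraries labelled knockout (KO) came from embryos carrying floxed alleles of Esrra and Esrrg together with Cre recombinase driven by the Nkx2-5 promoter. The control libraries, labelled wild type (WT), came from Cre-negative embryos with floxed Esrra and Esrrg. There were 3 libraries in each group, every one made from 2 pooled hearts. The floxed genes encode estrogen-related receptors, which are known to control genes of mitochondrial metabolism. The Nkx2-5 promoter is active in cardiac progenitors, so cell types of the ventricle outside that lineage keep their receptors, and Cre itself was present in the labelled KO group alone.

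Heme is built by a chain of enzymes that starts and ends in the mitochondrion. An aminolevulinate synthase, Alas1 in most tissues and Alas2 in developing red cells, makes the first precursor, and ferrochelatase (Fech) inserts iron at the last step. The heart needs heme for the cytochromes of the respiratory chain and for myoglobin. Cells take up iron through the transferrin receptor (Tfrc), store it in ferritin (Fth1 is the heavy chain) and release it through ferroportin (Slc40a1). Iron regulatory proteins, of which Ireb2 is one, bind hairpins called iron-responsive elements in some of these mRNAs. Binding near the start of an mRNA is known to block translation, and binding near the end of the Tfrc mRNA is known to protect it from decay.

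Total counts over genes were 14703820 to 32663845 in the labelled KO libraries and 12807218 to 17995718 in the control libraries. Levels are in CPM, counts scaled to library size with TMM, a factor that corrects for library composition, and a change means a Benjamini-Hochberg adjusted p under 0.05 over 14290 genes in edgeR's quasi-likelihood test. In this comparison 22.0% of tested genes fell and 22.4% rose, and the libraries of both groups did not overlap in 53.7% of genes. Esrra had a mean of 42.9 CPM in labelled KO and 75.8 CPM in control libraries. Esrrg went against its label, with 115.6 CPM in labelled KO and 81.7 CPM in control libraries. These counts cover whole transcripts, and the labels do not say which exons are floxed, so the deletion itself was not measured. Each direction given here is that of the libraries labelled KO. Pools differed in sex, shown here in CPM of library totals without TMM. Summed Y-linked transcripts were at 0.0567 and 0.167 CPM in control replicates 1 and 3 and at 112.2 CPM or more elsewhere. Xist was at 0.949 CPM in labelled KO replicate 1 and at 1170 CPM or more elsewhere. These 3 libraries, each of 1 sex, are left out in one alternative, which leaves 1 control that is assumed to vary like the labelled KO libraries. Reads between genes made up 16.4% to 22.4% in labelled KO and 23.3% to 27.1% in control libraries, and the part of this difference in the results was not tested. Summed levels of 8 cardiomyocyte markers were 31500 to 35070 CPM in labelled KO and 42300 to 45710 CPM in control libraries, the highest sum of all marker lists in each library. The highest of these markers was Myh7, with means of 13210 CPM in labelled KO and 18970 CPM in control libraries. Of the 8 markers 6 fell, against 22.0% of all tested genes. Actc1, at 9272 CPM in labelled KO and 9025 CPM in control libraries, and Actn2 did not pass the threshold.

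Of the 10 genes 4 fell and 0 rose, against 22.0% and 22.4% of all tested genes (44.4% in either direction). The share that changed was thus close to that of all genes, and the sizes differed between genes. Alas1 fell to 32.3% of the control level and Tfrc to 47.1%. Slc40a1 and Hmox2 fell less, to 72.4% and 82.1% of the control level. Alas2, Cpox, Ppox, Fech, Fth1 and Ireb2 did not pass the threshold. The median log2 fold change of the 10 genes was -0.11, beside 0.008 for all tested genes. In whole ventricles, fewer cells of a type and less RNA per cell cannot be told apart.

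**Figure D1:**
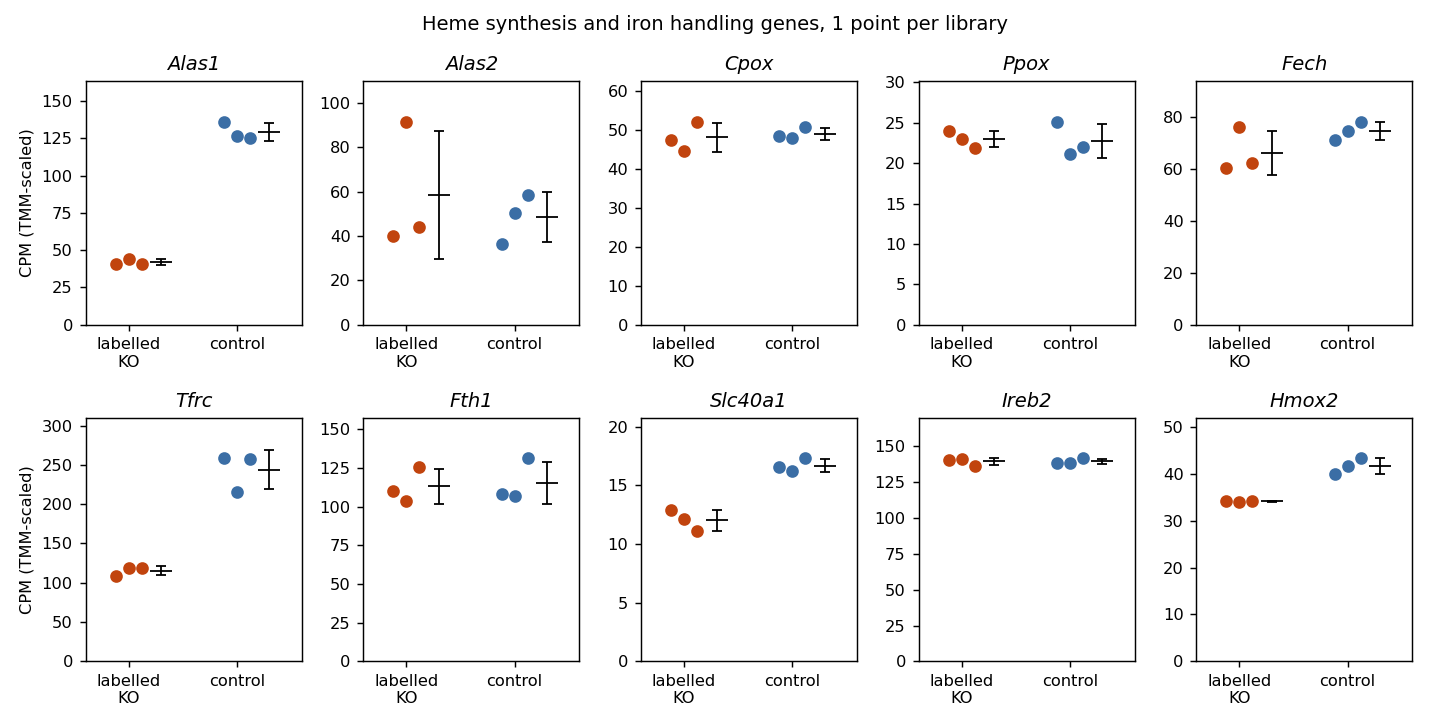
TMM-scaled CPM of each gene in the 3 libraries labelled KO (left) and the 3 control libraries (right); horizontal marks are group means and bars their SD (n = 3). The groups are apart for Alas1, Tfrc, Slc40a1 and Hmox2 and overlap for the other 6 genes.

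Alas1 encodes the aminolevulinate synthase of most tissues, the rate-limiting enzyme of heme synthesis. It lies on chromosome 9 at 106233455 to 106247954 of mm10, on the minus strand. Its level was 40.6, 44.1 and 40.8 CPM in labelled KO libraries, against 136.1, 126.2 and 125.1 CPM in control libraries. Every labelled KO library was below every control library, by a wide margin, and libraries of 1 group were close to each other. The log2 fold change was -1.63 (SE 0.0521), with an adjusted p of 1.25e-10 by edgeR. Among the 3150 genes that fell, Alas1 ranked 119 by size of log2 fold change. Over 15 alternative fits its log2 fold change stayed between -1.67 and -1.58.

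The table holds 2 transcripts of Alas1 that share most of their sequence. NM_020559 carried 94.1% to 96.3% of the Alas1 counts in labelled KO libraries and 96.6% to 98.8% in control libraries. Its log2 fold change was -1.67 (SE 0.0552), a fall with an adjusted p of 4.42e-06 by edgeR on 21591 transcripts. The minor transcript NM_001291835 averaged 44.3 estimated counts a library and stood at -0.62 (SE 0.443), with an adjusted p of 0.381. The authors' deposited table gives NM_020559 a fold of KO over WT of 0.315 with an FDR of 1.14e-71.

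The start of the main Alas1 transcript was searched for letters bound by factors of mitochondrial genes, because Alas1 had the greatest change. Motifs were searched on both strands of RefSeq windows (GRCm38.p6) of 250 bases before to 50 after each start, which were found for 8 of the 10 genes. The element TNAAGGTCA, known to bind estrogen-related receptors, was in 1.28% of 32851 windows. Among these genes it was in the window of Alas2 and not in those of Alas1 or Tfrc. The 10-base palindrome known to bind nuclear respiratory factor 1 (NRF1), whose letters are the capitals shown here, was in 0.971% of windows, and among these genes in that of Alas1. It lies in the first exon, printed with 10 bases on each side on the minus strand, at chr9:106247906-106247935.
Alas1 NRF1-type palindrome: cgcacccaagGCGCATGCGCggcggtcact
A match of letters is a description of the sequence and not of binding in these hearts.

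Alas2 encodes the synthase of the red cell lineage and served as a check for blood in the pools. It had 40.1, 91.5 and 43.8 CPM in labelled KO libraries, against 36.2, 50.4 and 58.6 CPM in control libraries. Labelled KO replicate 2 stood above all other libraries, and the remaining labelled KO libraries lay within the control range. The log2 fold change was 0.23 (SE 0.259, 95% interval -0.33 to 0.80), with an adjusted p of 0.502 by edgeR. Without labelled KO replicate 2 it was -0.21, with an adjusted p of 0.255. The Alas2 transcripts NM_001102446 and NM_009653 stood at 0.66 and 0.14, with adjusted p of 0.15 and 0.838.

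Red cell transcripts were set beside Alas2 as a sum. The summed level of 21 red cell marker symbols, 9 of them globins, was 1067, 2151 and 1076 CPM in labelled KO libraries, against 980.6, 1273 and 1388 CPM in control libraries. Of the markers 0 were at 0 in all libraries of a group. The 6 libraries had the same order for Alas2 as for this sum. Single markers did not all share this order. Hbb-y and Hba-x were highest in labelled KO replicate 1, at 9.87 and 6.38 CPM. Alas2 amounted to 37.6, 42.5 and 40.7 CPM per 1000 CPM of the markers in labelled KO libraries, and to 36.9, 39.6 and 42.3 in control libraries. The groups overlapped in both the sum and the ratio. The difference in the sum was 0.17 on the log2 scale (exact permutation test, two-sided, p = 0.8, where 0.1 is the smallest that 3 against 3 allows). Globin copies are nearly identical, so their single values are uncertain. Hbb-bt and Hbb-b2 stand at the same position in the deposited table with equal counts, and without Hbb-b2, a choice made after seeing the data, the order of the libraries was the same and the difference was 0.18 (exact permutation test, p = 0.8). Of 16 red cell markers tested 1 rose, against 22.4% of all genes, and 0 fell. The 12 markers other than globins summed to 66.8, 93.0 and 73.6 CPM in labelled KO libraries and to 44.9, 53.8 and 59.4 CPM in control libraries. The marker that rose is among these 12. These sums did not overlap, and their difference was 0.56 on the log2 scale (exact permutation test, two-sided, p = 0.1).

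**Figure D2:**
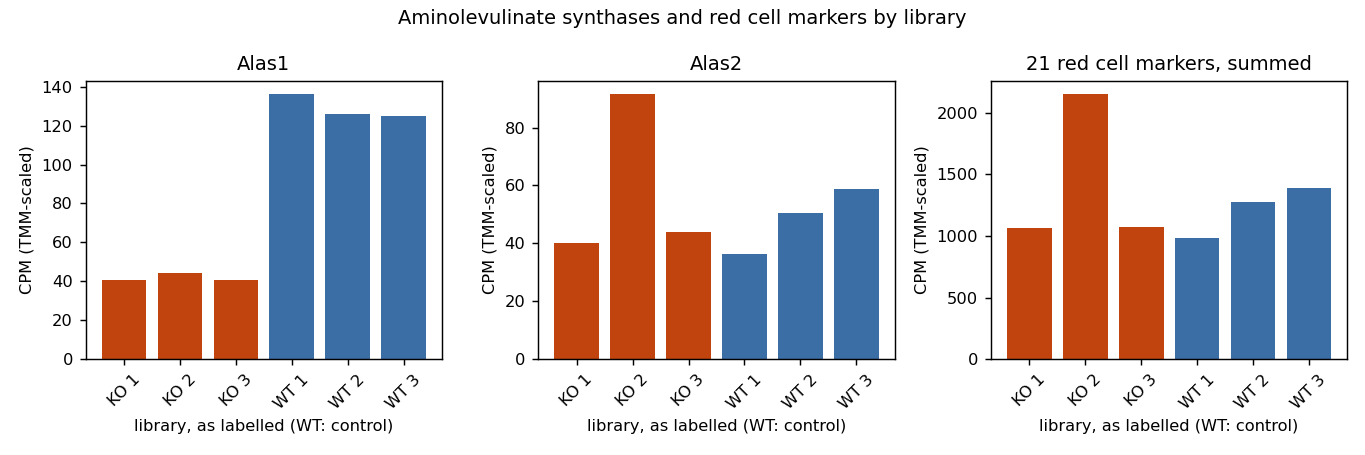
TMM-scaled CPM of Alas1, of Alas2 and of 21 summed red cell markers in each library, labelled KO libraries left and control libraries right. Alas1 is at 40.6 to 44.1 CPM in all labelled KO libraries, while Alas2 and the red cell markers are highest together in labelled KO replicate 2.

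The balance of the synthases was compared per length, in RPKM, read counts scaled to transcript length and library size. Alas1 made up 42.3%, 25.9% and 40.2% of the summed RPKM of Alas1 and Alas2 in labelled KO libraries. It made up 73.1%, 64.6% and 60.9% in control libraries. The shares did not overlap, and the group means were 36.2% ± 8.92 and 66.2% ± 6.29 (SD, n = 3 each). The exact permutation test gave its smallest two-sided p, 0.1. The lowest share was that of labelled KO replicate 2, the library with the highest Alas2 level and red cell sum, and the part of red cell content in the share was not tested.

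The later enzymes of the pathway were much closer between groups. Cpox, coproporphyrinogen oxidase (chromosome 16, 58670208 to 58680389), had 47.5, 44.6 and 52.1 CPM in labelled KO libraries, against 48.3, 47.9 and 50.7 CPM in control libraries. Labelled KO libraries lay both above and below the control range. Its log2 fold change was -0.03 (95% interval -0.16 to 0.11), with an adjusted p of 0.755 by edgeR. Ppox, protoporphyrinogen oxidase (chromosome 1, 171276992 to 171281186), had 23.9, 23.0 and 21.9 CPM in labelled KO libraries, against 25.2, 21.1 and 22.1 CPM in control libraries. Its labelled KO values all lay within the control range. The 95% interval of its log2 fold change ran from -0.16 to 0.17, with an adjusted p of 0.934.

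Fech, ferrochelatase, on chromosome 18, lay between these and the genes that fell. It had 60.6, 76.2 and 62.3 CPM in labelled KO libraries, against 71.2, 74.7 and 78.4 CPM in control libraries. Replicates 1 and 3 of the labelled KO group were below all controls, and replicate 2, the one with most red cell transcripts, was within the control range. The log2 fold change was -0.18 (SE 0.0769), with an adjusted p of 0.0725 by edgeR. Without labelled KO replicate 2 Fech fell, at -0.29 with an adjusted p of 0.00117. It also passed with the replicate number as a block (0.0356) and with no filter on low counts (0.0362).

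**Figure D3:**
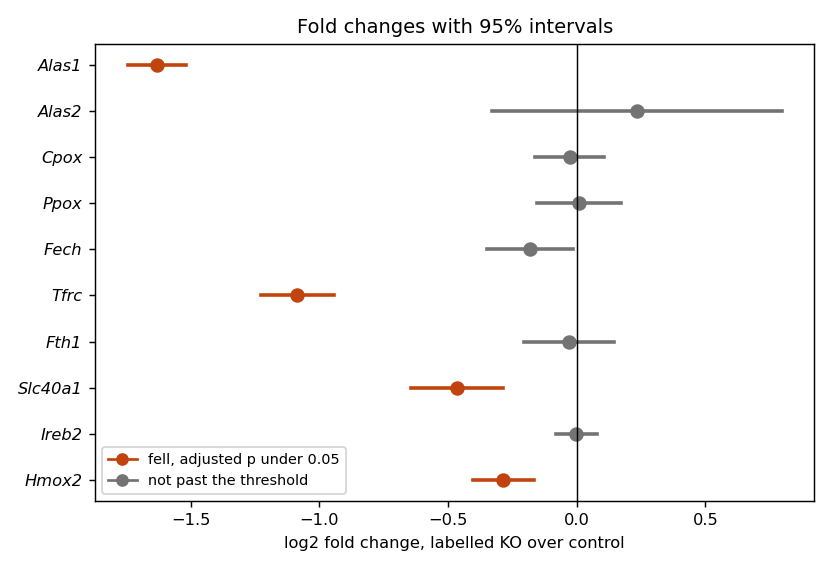
Log2 fold change of labelled KO over control for each gene by edgeR, with 95% intervals of the single gene, not adjusted for the number of genes. Alas1 at -1.63 and Tfrc at -1.09 are far below 0, and the interval of Alas2, from -0.33 to 0.80, is the widest.

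Hmox2 encodes the constitutive heme oxygenase, which opens the heme ring and frees its iron. It had 34.3, 34.0 and 34.2 CPM in labelled KO libraries, against 39.9, 41.7 and 43.3 CPM in control libraries. The labelled KO libraries were nearly identical and all below the controls. The log2 fold change was -0.29 (SE 0.0542), with an adjusted p of 0.000898 by edgeR. Of its transcripts, NM_001136066 fell at -0.45 (adjusted p 0.0454 by edgeR on transcripts) and NM_010443 stood at 0.086 (adjusted p 0.831). The authors' deposited table gives them an FDR of 0.0597 and 1.0, neither under 0.05. Estimated counts are shared out between such transcripts, and Hmox2 overlaps Cdip1 on the opposite strand, so the split is uncertain.

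Tfrc encodes transferrin receptor 1, the main route of iron into cells (chromosome 16, 32608896 to 32632794, plus strand). It had 108.5, 118.7 and 118.5 CPM in labelled KO libraries, against 258.3, 215.5 and 257.7 CPM in control libraries. The groups were far apart, and control replicate 2 was the lowest control. The log2 fold change was -1.09 (SE 0.0652), with an adjusted p of 3.35e-08 by edgeR. Tfrc ranked 384 by size of log2 fold change among the 3150 genes that fell. Without the 3 libraries of 1 sex or with the Y-linked level as a covariate its call held, and over all 15 alternatives its log2 fold change ran from -1.17 to -0.86. Tfrc is known to be abundant in red cell precursors, and the part of the red cell sums given with Alas2 in its level was not tested. The authors' deposited table gives Tfrc a fold of KO over WT of 0.471 with an FDR of 1.05e-17.

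Slc40a1 encodes ferroportin, the iron exporter of mammalian cells (chromosome 1, 45908070 to 45925594, minus strand). It had 12.9, 12.1 and 11.1 CPM in labelled KO libraries, against 16.6, 16.2 and 17.3 CPM in control libraries. All labelled KO libraries were below all controls, at low counts of 181 to 432 in labelled KO and 206 to 304 in control libraries. The log2 fold change was -0.47 (SE 0.0828), with an adjusted p of 0.000539 by edgeR. The authors' deposited table gives it a fold of KO over WT of 0.719 with an FDR of 0.115. Macrophages are known to express ferroportin, and 12 macrophage markers summed to 125.3, 112.4 and 113.8 CPM in labelled KO libraries and to 97.4, 94.6 and 102.9 CPM in control libraries. Of 10 macrophage markers tested 3 rose, Csf1r, Mrc1 and C1qa, and 0 fell, against 22.4% and 22.0% of all tested genes. The call of C1qa was lost in 7 of the 15 alternatives (adjusted p 0.130 with DESeq2), and that of Mrc1 without the 3 libraries of 1 sex (0.0557) and with the Y-linked covariate (0.0672). Their part in the level of Slc40a1 was not tested.

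Fth1, the ferritin heavy chain that oxidizes iron for storage (chromosome 19, 9980600 to 9985111), had 110.1, 103.7 and 125.4 CPM in labelled KO libraries. It had 108.1, 106.8 and 131.2 CPM in control libraries. Each group had 1 library above 120 CPM and the ranges overlapped almost wholly. The 95% interval of the log2 fold change ran from -0.21 to 0.15, with an adjusted p of 0.790 by edgeR. Ferritin genes have processed pseudogenes, so their counts depend on how reads with several matches were placed.

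Ireb2 encodes iron regulatory protein 2 (chromosome 9, 54863755 to 54912534). It had 140.3, 141.2 and 136.5 CPM in labelled KO libraries, against 138.6, 138.2 and 141.5 CPM in control libraries. All 6 libraries lay within 136.5 to 141.5 CPM. Its log2 fold change was -0.001 with the narrowest interval of the 10 genes, -0.081 to 0.079, and an adjusted p of 0.987 by edgeR. A change of the size seen for Hmox2 lies outside this interval.

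The hairpins through which iron regulatory proteins act were looked up, since the genes that carry them did not move alike. The pattern was a C, any 5 bases, the letters CAGTG and any 6 bases, with the bases on both sides of the loop required to pair (G with T allowed). It was searched on the transcript strand of untranslated regions in the GENCODE annotation (GRCm38). Of genes with a 5′ untranslated region 0.134% held a match there, and of genes with a 3′ untranslated region 0.607%. Matches lay in the 5′ region of Alas2, Fth1 and Slc40a1, and 4 lay in the 3′ region of Tfrc. Each is printed as DNA in transcript direction, with the first letters of the loop in capitals. They lie at chrX:150547459-150547485 (Alas2), chr19:9982733-9982759 (Fth1), chr1:45925466-45925492 (Slc40a1, minus strand), chr16:32631220-32631246 (Tfrc site 1), chr16:32631599-32631625 (site 2), chr16:32631664-32631690 (site 3) and chr16:32631711-32631737 (site 4).
Alas2 site: tggttcgtcctCAGTGcagggcaacag
Fth1 site: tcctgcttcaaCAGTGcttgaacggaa
Slc40a1 site: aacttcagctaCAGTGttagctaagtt
Tfrc site 1: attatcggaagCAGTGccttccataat
Tfrc site 2: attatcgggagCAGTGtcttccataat
Tfrc site 3: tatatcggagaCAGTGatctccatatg
Tfrc site 4: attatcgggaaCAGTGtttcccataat
Of the 4 genes with such a hairpin, Tfrc and Slc40a1 fell and Alas2 and Fth1 did not pass the threshold. Alas1, which fell most, has no match in its annotated untranslated regions. Translation was not measured here.

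Levels between genes were compared per length, in RPKM. In control libraries Fth1 was highest at 39.9 to 50.5 RPKM, followed by Tfrc at 16.0 to 19.0 and Alas1 at 16.8 to 17.5, whose ranges overlap. Hmox2 followed at 11.2 to 12.6 RPKM, above Fech at 8.51 to 9.78. Fech, Alas2 at 6.41 to 10.8 and Ireb2 at 8.30 to 8.84 RPKM overlapped. Cpox, Ppox and Slc40a1 were lowest and did not overlap, at 5.28 to 5.78, 4.22 to 4.80 and 1.71 to 1.86 RPKM. In labelled KO libraries Fth1 was again highest, at 42.0 to 52.6 RPKM. There Tfrc ranked 5 at 9.22 to 9.52 RPKM and Alas1 ranked 7 at 5.91 to 6.24 RPKM, within the range of Cpox at 5.35 to 6.46 RPKM.

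The other genes of heme synthesis fell more often than they rose. Of 14 genes 10 fell and 0 rose, against 22.0% and 22.4% of all tested genes, and their median log2 fold change was -0.39 beside 0.008 for all genes. The 4 with the smallest adjusted p were Cox10 and Cox15, which turn heme into the heme A of cytochrome oxidase, Hccs, which attaches heme to cytochromes c, and Abcb10, a transporter of the inner mitochondrial membrane. Cox10 fell to 20.8 ± 0.875 CPM in labelled KO libraries, against 42.8 ± 0.200 CPM in control libraries (SD, n = 3 each). Hccs fell to 32.6 ± 0.806 CPM in labelled KO libraries, against 61.3 ± 1.32 CPM in control libraries. The adjusted p of these 4 genes ran from 1.38e-08 to 8.00e-07 by edgeR. Slc25a39, Tmem14c and Clpx, an unfoldase that acts on aminolevulinate synthase, also fell, by 0.69, 0.47 and 0.39 on the log2 scale. Of the cytosolic enzymes, Alad fell at -0.29 and Uros at -0.39, while Urod stood at -0.11 and did not pass. Without the 3 libraries of 1 sex the calls of Alad (0.357), Uros (0.302) and Tspo (0.402) were lost, and likewise with the Y-linked covariate (0.425, 0.397 and 0.349, adjusted p by edgeR).

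Genes for proteins that carry heme also fell in part. Of 11 genes 7 fell and 1 rose, against 22.0% and 22.4% of all tested genes, and the median log2 fold change was -0.41. Of 8 cardiomyocyte markers 6 fell as well, and their part in the falls of these genes and of heme synthesis was not tested. Mb, the oxygen-binding myoglobin of muscle, fell to 171.3 ± 29.0 CPM in labelled KO libraries, against 676.9 ± 65.5 CPM in control libraries. Cycs, cytochrome c, fell to 212.1 ± 18.5 CPM in labelled KO libraries, against 624.1 ± 14.3 CPM in control libraries. Cyc1 of complex III and Sdhc of complex II fell by 1.48 and 1.33 on the log2 scale. The gene that rose was Gucy1b3, a subunit of the heme-containing guanylate cyclase, at 0.52. Catalase, Cat, was at 96.6 ± 1.70 CPM in labelled KO and 98.4 ± 3.80 CPM in control libraries and did not pass (adjusted p 0.652). The call of Cygb was lost without the 3 libraries of 1 sex (adjusted p 0.0714 by edgeR), and 2 genes of the list rose without labelled KO replicate 1.

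Of 9 tested genes of heme breakdown and transport 3 rose and 2 fell, close to the 22.4% and 22.0% of all tested genes, and the median log2 fold change was 0.021. Hmox1, the inducible heme oxygenase, rose to 11.3 ± 0.891 CPM in labelled KO libraries, against 5.84 ± 0.428 CPM in control libraries, with an adjusted p of 1.26e-05 by edgeR. Hmox1 and Hmox2 thus had log2 fold changes of opposite sign, 0.95 and -0.29. Pgrmc1, a heme-binding membrane protein, rose at 0.38 and Hebp1 at 0.29, and the call of Hebp1 was lost in 10 of the 15 alternatives. Blvra, biliverdin reductase A, fell at -0.42 and the porphyrin exporter Abcg2 at -0.24.

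Of 10 tested genes of iron uptake and mitochondrial iron other than Tfrc, 4 fell and 2 rose, against 22.0% and 22.4% of all tested genes. Their median log2 fold change was -0.046 beside 0.008 for all genes. The metal transporters Slc39a14 and Slc39a8 moved apart. Slc39a14 fell to 26.8 ± 0.566 CPM in labelled KO libraries, against 42.4 ± 3.60 CPM in control libraries. Slc39a8 rose to 26.8 ± 3.26 CPM in labelled KO libraries, against 11.9 ± 1.23 CPM in control libraries. The mitochondrial iron importer Slc25a28 fell at -0.38, the ferrireductase Steap4 fell at -1.24 and the ferrireductase Cybrd1 rose at 0.66. The endosomal iron transporter Slc11a2 stood at 0.060 (adjusted p 0.462). Calls of Steap4 (0.0687) and Cybrd1 (0.126) were lost without the 3 libraries of 1 sex, and that of Slc25a28 (0.0519) with the Y-linked covariate.

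Among 11 tested genes of iron storage, export and sensing, 7 rose and 2 fell, against 22.4% and 22.0% of all tested genes, and the median of their log2 fold changes was 0.25. Cp, ceruloplasmin, a copper enzyme that oxidizes exported iron, rose to 20.3 ± 3.02 CPM in labelled KO libraries, against 6.78 ± 2.02 CPM in control libraries. Without the 3 libraries of 1 sex its log2 fold change of 1.55 was 2.16. Heph, hephaestin, another such oxidase, rose at 0.45, and Bmp6, a growth factor that in the liver drives the iron hormone hepcidin, rose at 0.88. Hfe2, hemojuvelin, rose at 0.75, and at 1.37 without the 3 libraries of 1 sex. Ftl1, the ferritin light chain, rose to 599.8 ± 10.8 CPM in labelled KO libraries, against 505.4 ± 23.9 CPM in control libraries, with a log2 fold change of 0.25 and an adjusted p of 0.000697 by edgeR. Aco1, which encodes iron regulatory protein 1, fell at -0.33 (adjusted p 0.000194), while Fbxl5, which targets iron regulatory proteins for breakdown, rose at 0.23. Hfe fell at -0.50. Calls of Hfe (0.289), Fbxl5 (0.101) and Pcbp1 (0.0914) were lost without the 3 libraries of 1 sex. All 7 fibroblast markers rose, with summed levels of 7251 to 8420 CPM in labelled KO and 5163 to 5457 CPM in control libraries, and their part in these rises was not tested.

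**Figure D4:**
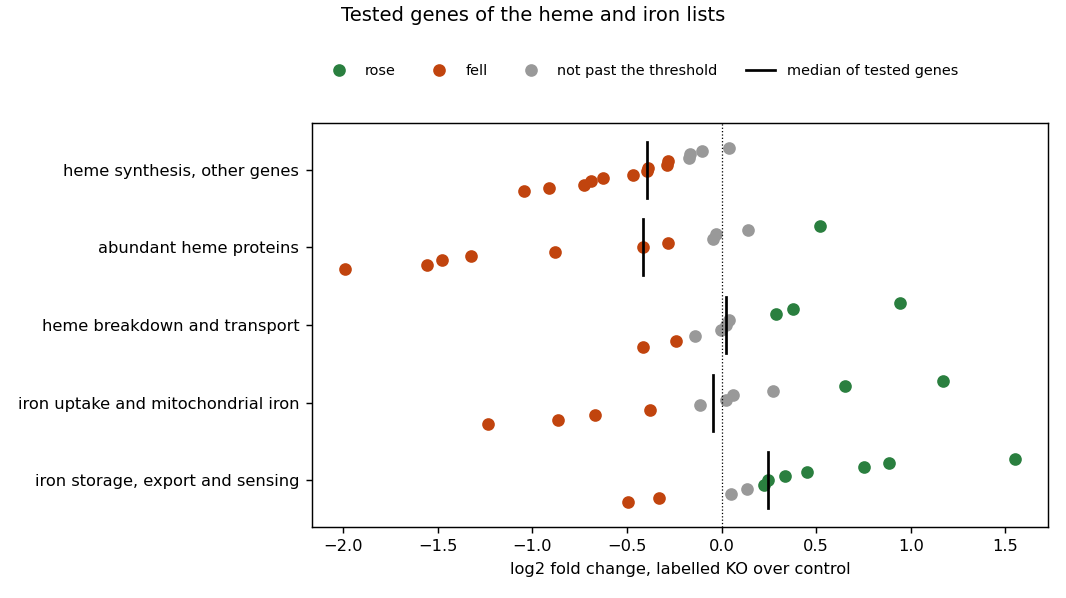
Log2 fold change of labelled KO over control for each tested gene of 5 heme and iron lists by edgeR, 1 point per gene, with the median of each list as a bar. Genes of heme synthesis have a median of -0.39 and heme proteins one of -0.41, and genes of iron storage, export and sensing one of 0.25.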

How the data were processed

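Total RNA was depleted of ribosomal RNA and read from one end, per the labels' protocols, which name both a TruSeq RNA kit and a stranded TruSeq total RNA kit. TopHat2 2.0, Partek 6.6, DESeq and mm10 are named, without roles, in the submitters' processing notes; strand use in counting is not given in the sources used here. For each transcript the deposited table gives estimated counts, of which 51.0% to 53.2% were not whole, RPKM that the authors scaled to length and reliable reads, and the authors' own fold and p-values. Estimated counts were summed to 19245 symbols and rounded; 58 transcripts with symbols turned into date numbers were renamed from their accessions. The test was edgeR 4.0.16 (R 4.3.3), quasi-likelihood, TMM, minimum count 10 and total 15, two-sided, adjusted over 14290 genes; SE is the log2 fold change over the root of F. It was tested on simulated data in which far fewer genes were changed than were called here, so that check does not cover a change of this breadth. Alternatives were DESeq2 1.42.0, limma-voom (limma 3.58.1), other scalings and filters, a replicate block, left-out libraries and Y-linked level. A count of 0 allows 0.0918 to 0.234 CPM (3 counts); this covers counting error only. Named genes were all 10, and in each list the changed genes by adjusted p, up to 4 in the majority direction and 2 in the other, with others named after their values were seen. Some genes of the lists are counted but not reported here by name. Genes and lists were chosen with earlier results of these data known.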

Additional observations from a re-analysis of the deposited data

Results flagged for a closer look

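The share of reads within introns, which no comparison of genes used, was 40.3% ± 1.62 in labelled KO and 37.9% ± 1.16 in control libraries (SD, n = 3 each). Each labelled KO library was above each control library. The same held for reads that fully overlap an exon, at 37.6% to 40.6% in labelled KO and 35.5% to 37.1% in control libraries. Reads between genes were lower in labelled KO, at 16.4% to 22.4% against 23.3% to 27.1%.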

How the results depend on the processing

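Over 15 alternatives the falls of Alas1, Tfrc, Slc40a1 and Hmox2 kept their call, with highest adjusted p of 1.04e-07, 1.97e-06, 0.0446 and 0.0348. Over all genes 3198 rose and 3150 fell. Against these, 1638 rose and 1766 fell with the Y-linked covariate, 1787 and 1858 without the 3 libraries of 1 sex, and 2636 to 3060 and 2683 to 3052 with 1 replicate left out. In the same 2 alternatives on sex, iron uptake had 1 rise in both and 2 falls with the covariate, and iron storage 1 fall in both. Replicate numbers did not pair the samples (same-number correlations -0.006, -0.015 and 0.104). With the replicate block 3228 genes rose and 3182 fell, 5 of the 10 genes fell, and Fech passed at -0.184, as it did with no filter on low counts at -0.182. Of the 10 genes, some that did not pass changed sign. With the covariate Cpox was at 0.010, Fth1 at 0.10 and Ireb2 at 0.013. Without the libraries of 1 sex they were at 0.018, 0.104 and 0.007, and with upper-quartile scaling Ireb2 was at 0.004. With 1 replicate left out, ranges were -0.212 to 0.464 for Alas2, -0.091 to 0.015 for Cpox, -0.037 to 0.088 for Ppox, -0.287 to -0.114 for Fech, -0.114 to 0.074 for Fth1 and -0.012 to 0.009 for Ireb2. Single transcripts gave -0.62 (NM_001291835 of Alas1), 0.073 (NM_001348055 of Fech) and 0.086 (NM_010443 of Hmox2). The red cell sum differed by -0.164 to 0.341 with 1 replicate left out, lowest without labelled KO replicate 2. The causes were not tested. The p-values measure the spread between these pools of hearts, for which no litter is given.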

Other observations

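Slc25a37, the mitochondrial iron importer of the red cell lineage, had 51.1, 79.9 and 54.9 CPM in labelled KO libraries, against 45.9, 52.6 and 53.7 CPM in control libraries. Its highest library was labelled KO replicate 2, as for Alas2, and its log2 fold change of 0.27 did not pass the threshold (adjusted p 0.122 by edgeR).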
